A study of Mus musculus with 12 samples.

Results

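Regulators of G protein signaling (RGS proteins) switch off G protein-coupled receptors: they bind the GTP-loaded Gα subunit, speed its hydrolysis of GTP and so shorten the signal. The family is divided into subfamilies by sequence. In megakaryocytes (MKs) and platelets, RGS proteins restrain signaling from the thrombin, ADP and thromboxane receptors, and in lymphocytes they restrain signaling from chemokine receptors. The 7 genes described here were listed by symbol: Rgs1, Rgs2, Rgs16 and Rgs18 of the R4 subfamily, Rgs10 and Rgs14 of the R12 subfamily, and Rgs19 of the RZ subfamily. They are 7 of 21 RGS-named genes looked up among the 55536 genes of the count table. Rgs1 was chosen by its measured fall between the splenic saline and sepsis libraries, and Rgs18 as the member known from MKs, so the splenic values of Rgs1 are described without a test.

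Cells were sorted from C57BL/6 mice 8 to 12 weeks of age, male and female, in which a Pf4-iCre transgene switches on a tdTomato reporter at the Rosa26 locus. All 4 groups carried both alleles. The groups were BM and spleen MKs, each 5 days after saline (controls) or after sepsis caused by i.p. cecal slurry (CS), with 3 libraries in each group and 300 pooled cells in each library. MKs were gated as CD45+, lineage-negative, Tomato+, CD41+ and CD42b+ cells, and because the Cre acts permanently, Tomato marks every cell that has ever expressed Pf4 and its descendants. The study describes the replicates as independent, and p values measure only the spread between these libraries.

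Total counts ranged from 7756762 to 27386184, and levels are given as CPM (counts scaled to a common, TMM-adjusted library total), as mean ± SD with n = 3. The libraries of the 2 tissues differed in their marker genes, and this touches every comparison between them. The 12 MK markers were seen in every group, but their summed level was 11739 to 47491 CPM in BM libraries and 1218 to 3505 CPM in splenic libraries. The 10 B cell markers summed to 64.4 to 281 CPM in BM and to 3245 to 10620 CPM in spleen, and the 7 plasma cell markers to 1468 to 4674 CPM in BM and 7530 to 80323 CPM in spleen. Neutrophil markers summed to 70.1 to 444 CPM in 7 libraries, and to 2240 to 16664 CPM in the 3 BM sepsis libraries, 21051 CPM in spleen saline replicate 1 and 10382 CPM in spleen sepsis replicate 1. In such bulk libraries, fewer cells of a type and less RNA per cell cannot be told apart.

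Rgs18 was the main RGS transcript of the BM libraries and had a lower CPM in the splenic libraries after both treatments. Rgs18 protein acts on Gαi and Gαq and limits platelet activation. Rgs18 (ENSMUSG00000026357, chromosome 1, 144752683 to 144775435, minus strand, GRCm38) was at 1423, 2318 and 2189 CPM in the BM saline libraries and at 3179, 944 and 1262 CPM in the BM sepsis libraries. In spleen it was at 227, 524 and 130 CPM after saline and at 96.2, 92.6 and 66.0 CPM after sepsis. All 6 BM libraries lay above all 6 splenic libraries, which was also the case for 2.57% of the 20263 genes that passed the expression filter. Its mean in BM was 1977 ± 484 CPM (saline) and 1795 ± 1209 CPM (sepsis), and in spleen 294 ± 205 CPM (saline) and 84.9 ± 16.5 CPM (sepsis). The log2 fold change of BM over spleen was 2.73 (SE 0.59, edgeR adjusted p = 0.0227) after saline, a 6.65-fold difference, and 4.40 (SE 0.63, edgeR adjusted p = 0.000635) after sepsis, a 21.1-fold difference.

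**Figure D1:**
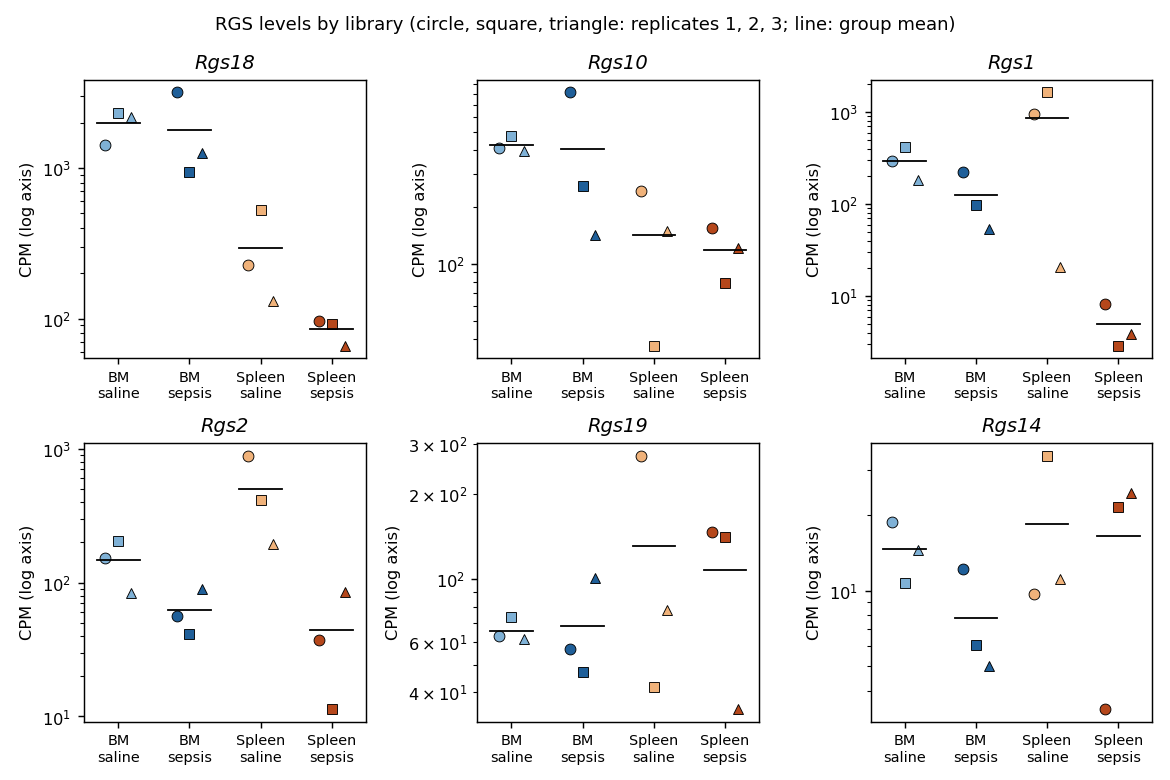
CPM of 6 RGS genes (log axis, a scale of its own for each gene) in each library, by group. Circles, squares and triangles are replicates 1, 2 and 3 and lines are group means. For Rgs18 every BM library lies above every splenic library, and for Rgs1 the 3 spleen sepsis libraries lie at 8.29 CPM or lower.

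Rgs18 was the only one of the 5 members open to a test that was called (adjusted p under 0.05) after saline, where 1.25% of all genes tested were called and 0.523% were called higher in BM. It was again the only one after sepsis, where 1.78% were called and 0.597% higher in BM. The median log2 fold change of all genes was -0.28 after saline and -0.18 after sepsis, and the Rgs18 difference lay 3.01 and 4.57 above these medians. The sepsis call was kept under all 21 alternative analyses (adjusted p from 6.76e-16 to 0.0350). The saline call held in 15 of 21. It went when BM saline replicate 2 was left out (adjusted p = 0.0755), or replicate 3 (0.0848), or spleen saline replicate 1 (0.0928) or 3 (0.0692), with limma-voom (0.112) and when only the 6 saline libraries were fitted (0.0511).

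The summed MK markers, mostly Pf4 and Ppbp in each library, were also lower in spleen, and their part in the difference was not tested. With 3 libraries in each splenic group, the order of the libraries cannot decide their part. Splenic saline replicate 3 had the highest MK sum of its group (3505 CPM) and the lowest Rgs18 (130 CPM). Splenic sepsis replicate 3 likewise had the highest sum (2314 CPM) and the lowest Rgs18 (66.0 CPM). Pf4, a platelet chemokine and the gene behind the reporter, had a log2 fold change of 3.99 (SE 0.62, edgeR adjusted p = 0.00197) after saline and 4.81 (SE 0.64, edgeR adjusted p = 0.000336) after sepsis. The median over the 12 MK markers was 2.78 after saline, with 4 called higher in BM, and 2.59 after sepsis, with 3 called. Counted as a percentage of the summed MK markers of the same library, a ratio that needs no scaling between libraries, Rgs18 was at 6.14%, 8.91% and 8.88% in BM after saline and at 6.69%, 6.09% and 10.7% in BM after sepsis. In spleen it was at 16.9%, 39.7% and 3.72% after saline and at 5.53%, 7.60% and 2.85% after sepsis. The splenic libraries thus lay both above and below the BM range of this ratio. Basophil and mast cell markers differed between the tissues as well. After sepsis 5 of 7 were called higher in BM, with a median log2 fold change of 4.29, and after saline 0 of 7, with a median of 0.98. Their part was not tested either.

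The treatments differed less. In BM MKs the log2 fold change of Rgs18 for sepsis over saline was -0.14 (SE 0.55, edgeR adjusted p = 1.0). In splenic MKs it was -1.81 (SE 0.57, edgeR adjusted p = 0.325), and the 3 sepsis libraries all lay below the 3 saline libraries, as they did for 4.51% of all genes tested. DESeq2 (adjusted p = 0.0235) and the fit with no filter on low counts (0.0312) called this difference. In the same comparison 3 of 7 basophil and mast cell markers were called lower and the other 4 had negative values, whereas 0 of 12 MK markers were called, with a median of 0.13, and the part of these cells was not tested. The tissue by sepsis interaction, which compares the change in BM with the change in spleen, was 1.66 (SE 0.78, edgeR unadjusted p = 0.0463, adjusted 0.641).

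Rgs10, a short R12 member that acts on Gαi proteins in platelets and in myeloid cells, had the next highest level in the BM libraries. Rgs10 (ENSMUSG00000030844, chromosome 7, 128373621 to 128418758, minus strand) was at 414, 476 and 395 CPM in BM after saline and at 813, 260 and 143 CPM in BM after sepsis. In spleen it was at 243, 36.7 and 149 CPM after saline and at 155, 79.1 and 121 CPM after sepsis. The saline groups did not overlap, as was so for 11.4% of all genes in this direction, whereas BM sepsis replicate 3 lay within the range of the splenic sepsis libraries. The log2 fold change of BM over spleen was 1.58 (SE 0.67, edgeR adjusted p = 0.378) after saline and 1.77 (SE 0.68, edgeR adjusted p = 0.297) after sepsis, and neither was called. Averaged over both treatments, a contrast added after the data were seen, it was 1.67 (SE 0.48, edgeR adjusted p = 0.0491), where 4.75% of all genes were called. That call was lost in 12 of 20 alternative analyses, among them leaving out any library other than BM sepsis replicates 2 and 3 and spleen saline replicate 1 (adjusted p up to 0.201). The change with sepsis was -0.08 (SE 0.66) in BM and -0.27 (SE 0.66) in spleen.

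**Figure D2:**
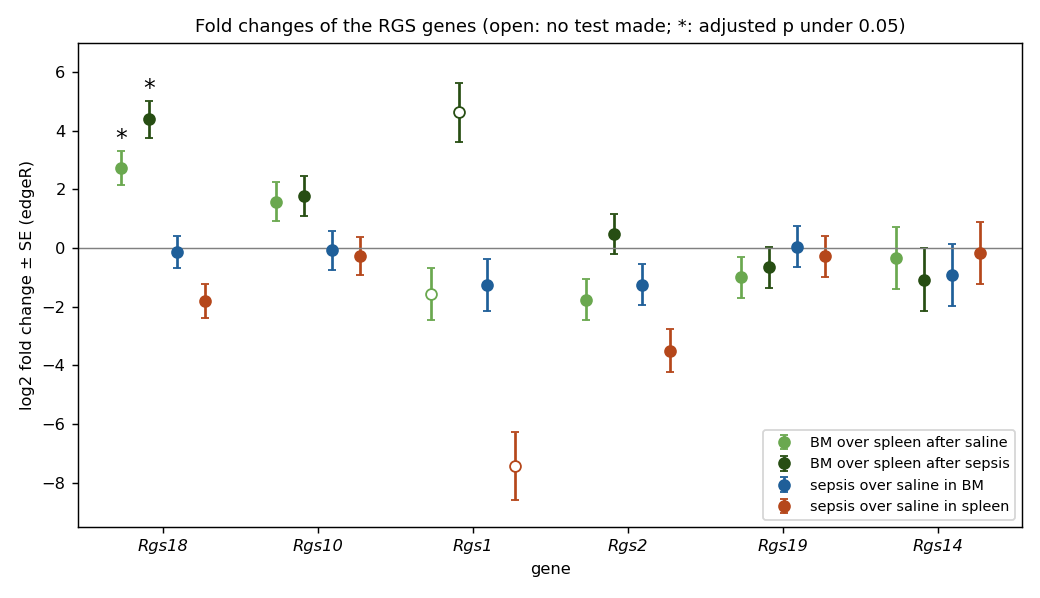
Log2 fold changes (edgeR, ± SE) of 6 RGS genes in the 4 pairwise comparisons, each with 3 libraries a group. Open circles mark Rgs1 values given without a test, and the 2 asterisks, both on Rgs18, mark adjusted p values under 0.05.

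The other R4 members with measurable levels, Rgs1 and Rgs2, had a pattern unlike that of Rgs18. Rgs1 restrains chemokine receptor signaling in lymphocytes and acts on Gαi and Gαq. Rgs1 (ENSMUSG00000026358, chromosome 1, 144242296 to 144249242, minus strand) was at 292, 416 and 184 CPM in BM after saline and at 225, 97.3 and 54.2 CPM in BM after sepsis. In spleen after saline it was at 953, 1639 and 20.99 CPM, a 78.1-fold spread between replicates, and after sepsis at 8.29, 2.90 and 3.93 CPM, from 162, 26 and 41 counts. Replicate 3 of the splenic saline group was apart from the other two, yet above all 3 sepsis libraries. The fitted log2 fold change of sepsis over saline in spleen was -7.44 (SE 1.16), the value for which the gene was chosen, and it ranged from -8.01 to -5.80 over the alternatives.

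BM over spleen, Rgs1 had a log2 fold change of -1.57 (SE 0.89) after saline and 4.62 (SE 1.02) after sepsis. The saline groups overlapped and the value ranged from -2.14 to 0.02 over the alternatives, whereas after sepsis all 3 BM libraries lay above the splenic ones, as for 11% of all genes. That follows in part from the choice of Rgs1 by its fall in the splenic sepsis libraries, so it is not read as a result. The fold changes also rest on the splenic libraries and are given without a test. The only comparison that uses no splenic library was sepsis over saline in BM, where the log2 fold change was -1.25 (SE 0.88, edgeR adjusted p = 1.0) and the groups overlapped, BM sepsis replicate 1 being above BM saline replicate 3.

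Markers of several other cells moved with Rgs1 in the splenic libraries, and their part in its levels was not tested. The 7 basophil and mast cell markers, all seen in every group, summed to 4610, 2663 and 2956 CPM in the splenic saline libraries and to 87.9, 40.4 and 670 CPM in the splenic sepsis libraries. In BM they summed to 4858 to 28661 CPM after saline and 2711 to 6583 CPM after sepsis. All 7 had negative log2 fold changes in spleen with sepsis. Of them Il4, Cpa3 and Ms4a2 were called, at -7.99, -5.04 and -5.07 (adjusted p = 0.0127, 0.0307 and 0.0400 in edgeR). Gata2, another gene of that list, is also a transcription factor of MKs. The NK cell markers summed to 1865, 1131 and 296 CPM in spleen after saline and to 228, 137 and 116 CPM after sepsis, and the T cell markers to 1972, 841 and 181 CPM and to 453, 433 and 176 CPM. Among the splenic saline libraries both sums were lowest in replicate 3, which had the least Rgs1. Both were highest in replicate 1, whereas Rgs1 was highest in replicate 2, where the basophil and mast cell sum was lowest. The T cell sums of the splenic saline and sepsis libraries overlapped. The order of 3 libraries cannot decide which cells had a part. Monocyte and macrophage markers summed to 1468 to 2772 CPM in the splenic saline libraries and 265 to 937 CPM in the splenic sepsis libraries, without overlap. Of the 9 tested, 0 were called and 9 had a negative log2 fold change, and Cd14 and C1qa of this list were at 0 in all 3 splenic sepsis libraries. Plasma cell markers summed to 46399 to 80323 CPM after saline and 7530 to 35433 CPM after sepsis, also without overlap. B cell marker sums overlapped between the splenic groups, at 4724, 3245 and 7713 CPM after saline and 10620, 9556 and 3463 CPM after sepsis.

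**Figure D3:**
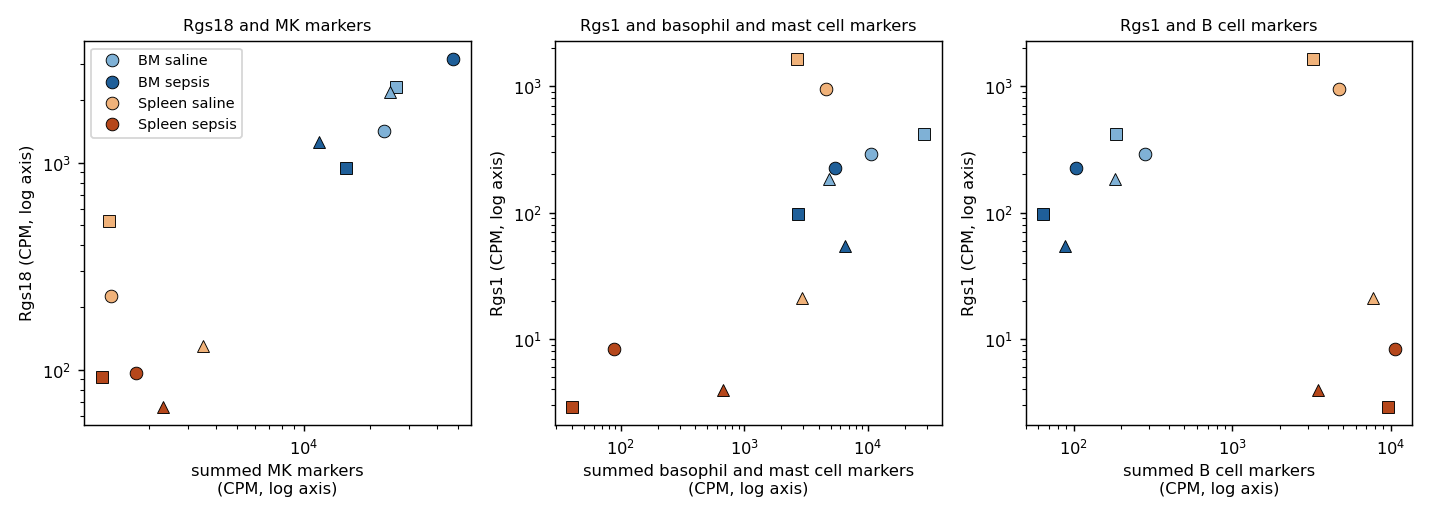
Each point is 1 of 12 libraries, on log axes in CPM: Rgs18 against the summed MK markers (left), and Rgs1 against the summed basophil and mast cell markers (middle) and the summed B cell markers (right). The splenic sepsis libraries combine low Rgs1 (2.90 to 8.29 CPM) with the lowest basophil and mast cell sums (40.4 to 670 CPM) and with B cell sums of 3463 to 10620 CPM.

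Rgs2, which acts preferentially on Gαq, had the largest difference between treatments among the members that were tested, but it did not pass the test. Rgs2 (ENSMUSG00000026360, chromosome 1, 143999338 to 144004161, minus strand) was at 153, 206 and 83.3 CPM in BM after saline and at 56.3, 41.4 and 89.1 CPM in BM after sepsis. In spleen it was at 887, 415 and 194 CPM after saline and at 37.2, 11.4 and 84.5 CPM after sepsis, without overlap, as for 4.51% of all genes in this direction. The log2 fold change of sepsis over saline in spleen was -3.49 (SE 0.75, edgeR unadjusted p = 0.000164, adjusted 0.0829), an 11.3-fold difference, and none of the 5 members tested was called, against 0.158% of all genes. It was called by DESeq2 (adjusted p = 7.62e-05), with no filter on low counts (0.000498), without spleen saline replicate 3 (0.0272) and without spleen sepsis replicate 3 (0.0306), and in none of the other 17 alternatives. The basophil and mast cell, monocyte and macrophage, and NK cell markers that went down beside Rgs1 did so in these same libraries, with negative values for 7 of 7, 9 of 9 and 5 of 6 genes tested and 3, 0 and 0 called. Their part in the Rgs2 difference was not tested.

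In BM the log2 fold change of Rgs2 was -1.25 (SE 0.69, edgeR adjusted p = 1.0), and the groups overlapped. No gene of the whole table was called in this comparison (0%; 717 had an unadjusted p under 0.05, and DESeq2 called 206), so none of the 6 members tested was. The interaction for Rgs2 was 2.25 (SE 0.97, edgeR unadjusted p = 0.0319, adjusted 0.624), and again 0% of all genes were called (1556 with an unadjusted p under 0.05, and 495 called by DESeq2). BM over spleen, Rgs2 was at -1.77 (SE 0.70, edgeR adjusted p = 0.331) after saline and 0.48 (SE 0.68, edgeR adjusted p = 0.847) after sepsis. The counts of Rgs1 and Rgs2 did not keep a constant ratio: Rgs1 was 1.91 to 2.20 times Rgs2 in BM after saline, 0.609 to 4.005 times in BM after sepsis, 0.108 to 3.95 times in spleen after saline and 0.0465 to 0.255 times in spleen after sepsis.

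Rgs19, also called GAIP, acts on Gαi proteins and carries a cysteine string at its N terminus. Rgs19 (ENSMUSG00000002458, chromosome 2, 181688419 to 181693977, minus strand) was at 63.2, 73.3 and 61.3 CPM in BM after saline and 56.9, 46.9 and 101 CPM in BM after sepsis. It was at 273, 41.6 and 78.1 CPM in spleen after saline and 147, 141 and 34.8 CPM in spleen after sepsis. The splenic libraries lay on both sides of the BM libraries. The log2 fold change of BM over spleen was -0.99 (SE 0.70, edgeR adjusted p = 0.587) after saline and -0.66 (SE 0.70, edgeR adjusted p = 0.754) after sepsis, and the changes with sepsis were 0.05 (SE 0.70) in BM and -0.28 (SE 0.70) in spleen, so that no direction was supported for this gene.

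Rgs14, a scaffold that also binds Ras-family GTPases and inactive Gαi, was low throughout. Rgs14 (ENSMUSG00000052087, chromosome 13, 55369732 to 55384687, plus strand) ranged from 5.00 to 18.7 CPM in the 6 BM libraries and from 3.38 to 34.3 CPM in the 6 splenic libraries. Its log2 fold changes in the 4 pairwise comparisons lay between -1.09 and -0.17 with SE of 1.06 to 1.07, and none was called. Rgs16, which restrains chemokine receptors in T cells and in MKs, was in effect not detected. Rgs16 (ENSMUSG00000026475, chromosome 1, 153740349 to 153745468, plus strand) had 11 counts in BM sepsis replicate 3 (0.385 CPM) and 0 counts in the 11 other libraries. In those 11 libraries a count of 0 allowed up to 3 counts, or 0.154 to 0.403 CPM depending on the library, as counting error only. It did not pass the expression filter and was not tested, and 10.1% of its exon length overlaps the antisense gene Gm28513, whose reads cannot be told apart from its own because this library method does not mark strand.

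Levels were compared between genes as CPM per kb of exon, averaged by group. In BM the order was Rgs18 (973 ± 238 CPM per kb), Rgs10 (250 ± 24.7), Rgs1 (42.8 ± 16.7), Rgs2 (40.6 ± 16.9), Rgs19 (29.6 ± 2.89) and Rgs14 (3.45 ± 0.95) after saline. Rgs18 and Rgs10 were each apart from their neighbors by more than the SD, whereas Rgs1, Rgs2 and Rgs19 were not apart from each other. After sepsis the BM order was Rgs18 (884 ± 595), Rgs10 (237 ± 209), Rgs19 (30.6 ± 12.9), Rgs1 (18.1 ± 12.8), Rgs2 (17.2 ± 6.72) and Rgs14 (1.83 ± 0.92). In spleen after saline Rgs18 (145 ± 101), Rgs2 (137 ± 97.6), Rgs1 (125 ± 117), Rgs10 (83.6 ± 60.4) and Rgs19 (58.7 ± 55.8) were not separated beyond their spread. In spleen after sepsis Rgs10 (69.3 ± 22.3), Rgs19 (48.3 ± 28.4) and Rgs18 (41.8 ± 8.14) led, and Rgs1 (0.73 ± 0.41) was the 11th of the family.

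Expressed as a share of the summed level per kb of all 21 RGS genes, which also needs no scaling between libraries, Rgs18 made up 65.7% to 79.0% in the 6 BM libraries and 14.5% to 35.9% in the 6 splenic libraries. It was the highest RGS gene in every BM library. In spleen the highest gene differed by library: it was Rgs2, Rgs18 and Rgs10 in saline replicates 1, 2 and 3, and Rgs10, Rgs19 and Rgs10 in the sepsis replicates. Rgs10 made up 10.6% to 22.8% in BM, 2.99% to 28.5% in spleen after saline and 26.98% to 42.1% in spleen after sepsis. Within a library, Rgs18 was 2.90 to 7.45 times Rgs10 per kb in BM, 0.736 to 12.02 times in spleen after saline and 0.458 to 0.986 times in spleen after sepsis.

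**Figure D4:**
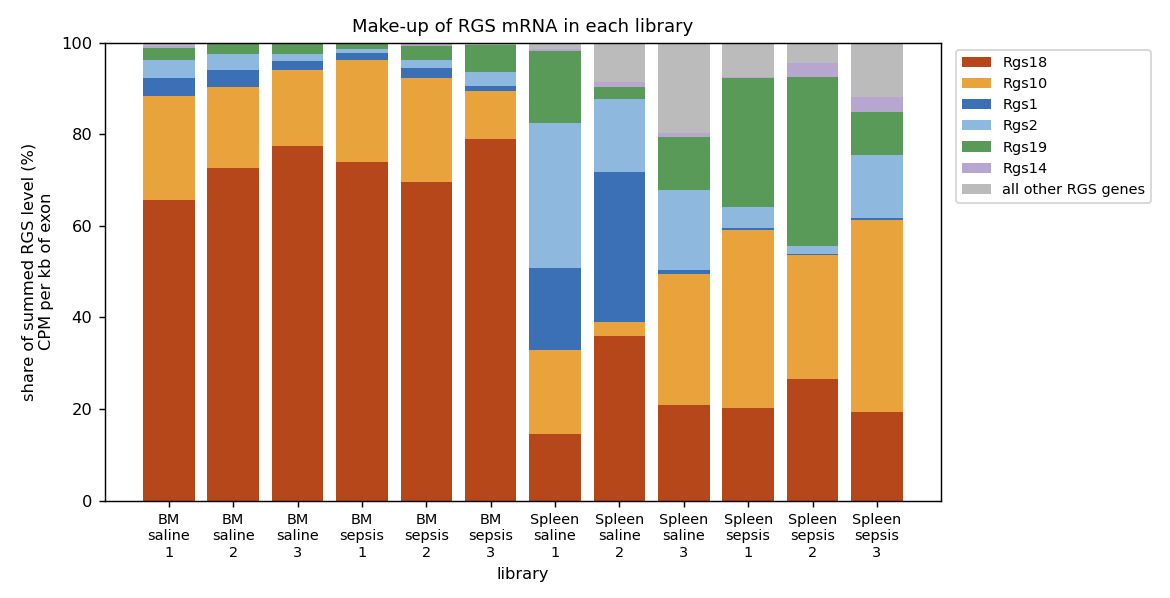
Stacked bars give each gene's share (%) of the summed CPM per kb of exon of all 21 RGS genes in each of the 12 libraries. The 14 genes that are not members are in grey, and Rgs16, at 0.0209% or less, is not drawn. Rgs18 fills 65.7% to 79.0% of the BM bars and 14.5% to 35.9% of the splenic bars.

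The other 14 RGS genes together made up 0.106% to 0.666% of this sum in BM libraries and 1.42% to 19.8% in splenic libraries. Of these 14 genes 10 passed the expression filter, and 0 were called in any of the 4 pairwise comparisons by edgeR (4 of 40 values had an unadjusted p under 0.05). Of all genes, 1.25% were called in BM over spleen after saline and 1.78% after sepsis. For sepsis over saline, 0% of all genes were called in BM and 0.158% in spleen. The highest mean levels per kb over the 12 libraries were those of Rgs13 (10.5 CPM per kb), Rgs12 (1.05), Rgs11 (0.74) and Rgs5 (0.70). Rgs13, an R4 gene known from germinal center B cells and mast cells, was at 2.96, 77.7 and 89.8 CPM in spleen after saline, at 24.6, 9.02 and 0.0959 CPM in spleen after sepsis, and at 1.75 CPM or lower in each BM library. Its log2 fold change of BM over spleen, averaged over both treatments, was -5.30 (SE 1.38, edgeR adjusted p = 0.0290). That contrast was added after the data were seen, and 4.75% of all genes were called in it. In it 10 of 10 B cell markers were called lower in BM, and 4 of 7 basophil and mast cell markers higher. The part of these cells in the Rgs13 value was not tested. Rgs11 and Rgs5 were at 3 counts or fewer in 9 and 7 of the 12 libraries.

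A shared feature that the choice of genes did not use is position. Rgs2, Rgs13, Rgs1, Rgs21 and Rgs18 lie in this order within 776 kb of chromosome 1, all on the minus strand, and they are the only 5 protein-coding genes that lie wholly within that span. Neighbors in the cluster differed in level: Rgs21 had counts in 2 of the 12 libraries, both BM saline, whereas Rgs18 was at 66.0 CPM or more in each library. Rgs2, Rgs13 and Rgs1 had their highest group mean in spleen after saline (498 ± 354, 56.8 ± 47.1 and 871 ± 812 CPM), and Rgs18 had its highest in BM after saline. Rgs16 lies on the same chromosome outside this cluster.

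**Figure D5:**
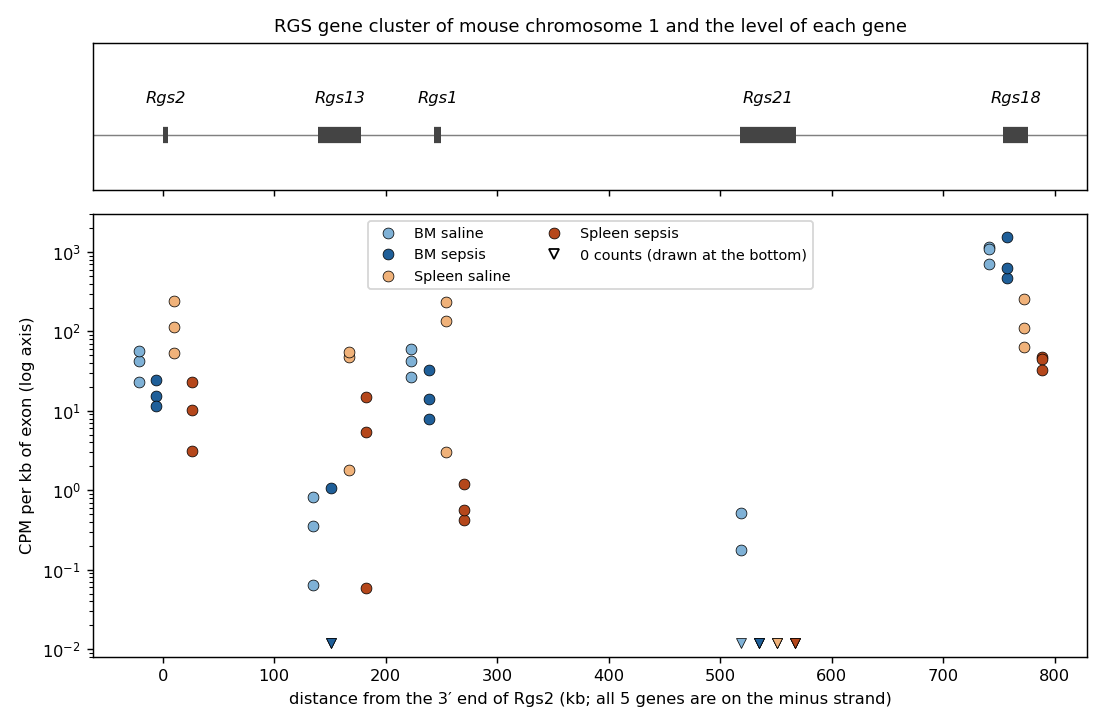
Top, the 5 RGS genes of the cluster on chromosome 1, drawn to scale in kb from the 3′ end of Rgs2. Bottom, CPM per kb of exon (log axis) of each gene in each of the 12 libraries, colored by group and offset sideways for legibility, with libraries at 0 counts drawn as triangles at the bottom. Rgs18 is at 700.7 to 1141 CPM per kb in BM saline libraries, while Rgs21 has counts in 2 libraries.

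Promoters from RefSeq (GRCm38.p6) were looked up for all 7 genes and found for 4: Rgs2, Rgs10, Rgs16 and Rgs19. No entry was used for Rgs1, Rgs14 and Rgs18. The stretches below, 5′ to 3′ from 250 to 13 bases before the RefSeq start, are shown so that Rgs2 and Rgs10, the members nearest to the threshold after Rgs18, can be set beside Rgs19, which showed no direction. Of the 3 RefSeq starts of Rgs19 the most upstream is shown. Both strands were searched for 3 motifs, and capitals mark matches. The motif of GATA factors was spelled AGATAA. That of ETS factors was spelled GGAAGT. Only a part of the CRE motif was searched, spelled TGACGT and called the partial CRE motif here, so a match need not be a full CRE. The match printed for Rgs2 is on the other strand.
Rgs2, chr1:144004162-144004399, minus strand: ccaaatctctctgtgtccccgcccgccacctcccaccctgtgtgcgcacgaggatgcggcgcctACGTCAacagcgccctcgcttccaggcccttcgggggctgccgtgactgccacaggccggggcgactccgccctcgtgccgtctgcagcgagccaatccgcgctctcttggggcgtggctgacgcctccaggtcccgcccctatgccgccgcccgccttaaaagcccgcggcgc
Rgs10, chr7:128418185-128418422, minus strand: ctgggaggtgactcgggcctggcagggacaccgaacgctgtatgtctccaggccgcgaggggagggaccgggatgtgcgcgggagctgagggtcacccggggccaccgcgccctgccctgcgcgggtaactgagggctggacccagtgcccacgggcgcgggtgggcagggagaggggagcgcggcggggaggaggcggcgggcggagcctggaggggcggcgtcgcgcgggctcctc
Rgs19, chr2:181693990-181694227, minus strand: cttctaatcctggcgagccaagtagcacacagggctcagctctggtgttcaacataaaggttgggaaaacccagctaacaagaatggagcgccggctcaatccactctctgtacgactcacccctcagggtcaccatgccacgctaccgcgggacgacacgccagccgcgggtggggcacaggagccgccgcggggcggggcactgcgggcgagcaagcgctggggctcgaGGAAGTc

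Of these 3 promoters, that of Rgs2 held the partial CRE motif, 186 bases before the start. That of Rgs19 held the ETS motif 19 bases before the start and again at base 6 after it, past the stretch shown. The window of the next Rgs19 start overlaps this one and its 2 ETS matches are the same sites, while that of the last start held 1 further ETS match. That of Rgs10 held none of the 3 in its 300 bases, nor did that of Rgs16. Of all 32851 promoters of 300 bases, 7.51% held the partial CRE motif, 23.8% the ETS motif and 11.2% the GATA motif. GC content was 70%, 76% and 66.7% for Rgs2, Rgs10 and Rgs19, at or above 90.9%, 97.1% and 85.6% of all promoters. These matches describe the sequence only.

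The genes that RGS proteins act on, and the receptors upstream of them, were taken from lists. Of 13 Gα genes, all tested, 0 were called in any pairwise comparison in edgeR, with a median log2 fold change of -0.07 after saline and 0.68 after sepsis for BM over spleen, beside -0.28 and -0.18 for all genes. Of 11 Gβ and Gγ genes tested, and of 3 genes for platelet partners of RGS proteins (Ppp1r9b, Ptpn6 and Ywhag), 0 were called in the 4 pairwise comparisons. In the mean of both tissue differences, added after the data were seen, 1 gene of each list was called. In that contrast 4.75% of all genes were called, so these single calls are not read as a result about the lists. Gnaz, a Gα gene of platelets, was higher in BM at 2.55 (SE 0.71, edgeR adjusted p = 0.0432), and Gng2, a Gγ gene, and Ptpn6, the phosphatase SHP-1, were lower at -1.96 (adjusted p = 0.0364) and -2.19 (adjusted p = 0.00854). Among the receptors more genes were called. Of 9 listed receptors of human or mouse platelets, 1 was called higher in BM after saline and 4 after sepsis. Their medians were 3.68 and 5.64, and 0.523% and 0.597% of all genes were called higher. All 12 MK markers had positive values in both comparisons, and 5 of 7 basophil and mast cell markers were called higher after sepsis. Their part in these receptor values was not tested. F2r, the PAR1 thrombin receptor known from human platelets, had 268 CPM in BM and 18.3 CPM in spleen after saline. Its log2 fold change was 3.86 (SE 0.69, edgeR adjusted p = 0.00675) after saline and 5.64 (SE 0.75, edgeR adjusted p = 0.000336) after sepsis. F2rl2, the PAR3 receptor, was higher in BM after sepsis by 4.83 (SE 1.06, edgeR adjusted p = 0.0207), and P2ry1, an ADP receptor that couples to Gαq, by 5.86 (SE 1.11, edgeR adjusted p = 0.00733). Ptger3, the EP3 receptor for prostaglandin E2, was at 38.3 CPM in spleen after saline and at 0.389 CPM after sepsis. It fell by 6.61 on the log2 scale (SE 1.13, edgeR adjusted p = 0.0249). In that comparison all 7 basophil and mast cell markers had negative values and 3 were called.

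Of 11 receptors of lymphocytes, 2 were called lower in BM after saline and 3 after sepsis, with medians of -2.87 and -2.39. Of all genes, 1.25% and 1.78% were called in either direction, and the medians over all genes were -0.28 and -0.18. The chemokine receptor Cxcr5 was at 0.492 CPM in BM and 65.4 CPM in spleen with saline, its log2 fold change being -7.02 (SE 1.34, edgeR adjusted p = 0.0105), and at -6.30 (adjusted p = 0.0130) after sepsis. Gpr18 was at -5.83 (adjusted p = 0.0350) and -5.28 (adjusted p = 0.0381). S1pr1, a receptor of lymphocyte egress, was at -4.40 (SE 0.80, edgeR adjusted p = 0.00510) after sepsis. The B cell markers went the same way, with 9 of 10 called lower in BM after saline and 10 of 10 after sepsis. Their part in these receptor differences was not tested.

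Lastly, the genes with the profile most like that of Rgs18 and of Rgs1 were named, by the root mean square difference between mean-centered log2 CPM (prior count 2) over the 12 libraries, among 15142 genes tested. These are descriptions, since the profiles share their libraries and scaling. The nearest to Rgs18 were Ltc4s (0.74), Plek (0.76), Pnldc1 (0.77), Nfe2 (0.82) and Gata1 (0.84), where the median over the candidates was 2.46. Plek encodes pleckstrin, a kinase substrate of platelets, and averaged 1166 CPM (saline) and 1074 CPM (sepsis) in BM, and 277 CPM and 158 CPM in spleen. Nfe2 and Gata1 encode transcription factors of MK maturation. Ltc4s and Pnldc1 were low, at 3.84 and 1.95 CPM in BM and 0.491 and 0.0268 CPM in spleen after saline. The nearest to Rgs1 were Chn2 (1.04), Arrdc4 (1.05), Igfbp7 (1.08), Il4 (1.10) and Ptger3 (1.10), with a median of 3.28. Il4, a cytokine of the basophil and mast cell list, averaged 66.2 CPM (saline) and 31.4 CPM (sepsis) in BM, and 104 CPM and 0.374 CPM in spleen.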

How the data were processed

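The authors sequenced 12 SMART-Seq HT and Nextera XT libraries and deposited a table of raw read counts for 55536 Ensembl genes, not normalized. The submitters' processing notes name STAR 2.7.2b, R 3.6.1, DESeq2 1.26 and GRCm38, and the annotation, strand setting and counting options were not given in the sources used here. All identifiers were matched to GENCODE M21, from which symbols, positions and exon lengths were taken. No replicate pair agreed within sampling noise (chi-square per degree of freedom 44.2 to 509 over 12 pairs).

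The 20263 genes kept by filterByExpr (minimum count 10) were fitted in edgeR 4.0.16 (R 4.3.3) with TMM factors (0.713 to 1.43) and 1 mean per group, all 12 libraries together (8 residual degrees of freedom). Quasi-likelihood F tests were adjusted by Benjamini-Hochberg over all genes, and those under 0.05 were called. SE is the log2 fold change divided by the square root of F. Each library holds 7756762 counts or more, so the spread between libraries (biological coefficient of variation 143%) set the precision. Limits for counts of 0 (3 counts per library) cover counting error only, since PCR copies are not independent molecules. The procedure was tested on simulated data.

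The members, lists and tests were chosen with earlier results of these data known. Named are all members, genes of the other lists called in a pairwise comparison (at most 4 a list by p), the 4 highest other RGS genes, and the 5 nearest profiles of Rgs18 and Rgs1, leaving out receptor and immunoglobulin segments, RGS genes and unnamed loci. Marker lists were summed, and of their called genes only those beside a result are named. Alternatives were RLE factors, library size alone, other filters, DESeq2 1.42.0, limma-voom (limma 3.58.1) with quality weights, the 6 libraries of a comparison, segment genes removed, a replicate block, and each library left out, with the genes tested held fixed. The mean of both tissue differences was added after the data were seen.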

Additional observations from a re-analysis of the deposited data

How the results depend on the processing

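Of the calls on RGS genes, that of Rgs18 in BM over spleen after sepsis was kept under all alternatives, with a log2 fold change of 3.69 to 4.92. The number of members called after saline was 1, and 0 with limma-voom (Rgs18 log2 fold change 3.04) and with the 6 saline libraries alone (2.68), and 0 to 1 with a library left out. In spleen, sepsis over saline, 0 members were called, and 2 were called with DESeq2 (Rgs2 -3.64, Rgs18 -2.07) and with no filter (Rgs2 -3.45, Rgs18 -1.73), and 0 to 1 with a library left out. For the mean of both tissue differences 2 members were called, and 1 with RLE factors (Rgs10 1.51), the stricter filter (1.59) and limma-voom (1.57), and 1 to 2 with a library left out. In the other comparisons 0 were called throughout, and the cause of these differences was not tested.

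All genes called after saline were 253, and 529 with no filter, 1312 with DESeq2 and 82 to 379 with a library left out; after sepsis they were 361, and 595, 1472 and 187 to 436, and 724 with limma-voom. For sepsis over saline in BM they were 0, and 81 with no filter, 206 with DESeq2 and 0 to 1 with a library left out. In spleen they were 32, and 187, 986 and 6 to 86, with 20 under the stricter filter, 0 with limma-voom and 0 with the 6 splenic libraries alone. For the interaction they were 0, and 130, 495 and 0 to 15. For the mean of both tissue differences they were 962, and 1515 with library size alone, 2615 with DESeq2, 1517 with limma-voom and 647 to 1092 with a library left out.

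Some log2 fold changes that were not called changed sign. With another setting, Rgs14 after saline was 0.0776 with library size alone, Rgs19 in BM was -0.0253 with RLE factors and -0.0252 with DESeq2, and with limma-voom Rgs19 in spleen was 0.24 and the interactions of Rgs10 and Rgs19 were -0.57 and -0.16. With a library left out, Rgs14 and Rgs19 after saline ranged from -0.66 to 0.50 and from -1.41 to 0.13. In BM, sepsis over saline, Rgs10, Rgs18 and Rgs19 ranged from -1.09 to 0.38, from -0.84 to 0.24 and from -0.31 to 0.33. In spleen Rgs10, Rgs14 and Rgs19 ranged from -0.72 to 0.35, from -0.58 to 0.67 and from -0.70 to 0.84. The interactions of Rgs10 and Rgs19 ranged from -0.82 to 0.65 and from -0.79 to 0.75.

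The labels do not say whether equal replicate numbers mark the same mouse. Deviations from the group means correlated at -0.057 to 0.045 over 18 same-numbered pairs, and at -0.074 to 0.072 over pairs with unlike numbers. Only BM and spleen libraries of the same treatment could share a mouse, and the spread between libraries was wide. These correlations therefore cannot decide whether libraries were paired by mouse. With the number as a replicate block, 288, 401, 0, 33 and 0 genes were called in the 5 comparisons and 955 in the mean of both, the members called did not change in number, and the Rgs10 interaction was -0.33.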
